A study of Mus musculus with 6 samples.

Results

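The genes described here encode the chains of 2 families of cell adhesion proteins: 21 integrin genes (13 alpha and 8 beta chains) and 10 laminin genes (5 alpha, 3 beta and 2 gamma chains). They were taken by symbol from a list of integrin and laminin chain genes and make up 31 of the 17558 genes in the deposited table. Their RNA was measured by sequencing in C2C12 cells, mouse myoblasts of an immortalized line whose cells fuse into myotubes once serum is lowered. All cells carried a stably expressed short hairpin RNA, and all were collected 48 h after the switch from growth medium with fetal bovine serum to differentiation medium with horse serum, insulin, transferrin and selenium. The 3 groups of 2 libraries differed in the hairpin: a scrambled one in the controls (shScr, otherwise wild type), one against the Pkm1 splice isoform of pyruvate kinase (shPkm1) and one against its Pkm2 isoform (shPkm2). Whether a group is a pool of cells or a clone, and whether its libraries came from separate cultures, is not given in the sources used here. The p-values therefore measure only the spread between these libraries, which may be technical.

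Integrins are receptors made of 1 alpha and 1 beta chain that span the cell membrane and tie the matrix outside the cell to actin inside it. Laminins are trimers of an alpha, a beta and a gamma chain and are the main building blocks of basement membranes, the thin matrix sheets that surround each muscle fibre. Skeletal muscle is known for the alpha7 integrin paired with beta1, the main laminin receptor of myotubes, and for laminins that carry the alpha2 chain, whose loss causes a congenital muscular dystrophy.

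Libraries held between 18216896 and 19796036 estimated counts. The summed level of 13 muscle differentiation markers, in TPM (a unit scaled for transcript length and library size), ran from 41000 to 53771 in the controls, from 19547 to 21074 with shPkm1 and from 1329 to 1397 in the shPkm2-labelled libraries, and all 13 markers were called lower in both hairpin groups. Summed TPM of 8 proliferation markers ran from 120.3 to 163, from 318 to 324 and from 922 to 997 in the same order. Summed TPM of 6 fibroblast markers, most of it Col1a1, ran from 374 to 385, from 2605 to 2647 and from 64.1 to 70.6. Of the leukocyte, endothelial, epithelial, Schwann cell and adipocyte markers, Krt14 (epithelial), Erbb3 (Schwann cell) and Cd68 (leukocyte) were the only ones over 1 TPM in any library, while Epcam, Sox10, Emcn and Cfd were at 0 in all libraries. The summed epithelial markers, nearly all Krt14, ran from 1.71 to 3.69 TPM in the controls, from 28.97 to 35.25 TPM with shPkm1 and from 6.85 to 6.91 TPM with the shPkm2 label. The leukocyte markers Ptprc, Adgre1 and Cd3e were not analysed here. The part that these shifts in other genes play in the results below was not tested.

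The Pkm1 isoform (NM_001253883.1) was at 1004 and 959 CPM (counts scaled to library size) in the controls, 312 and 296 CPM with shPkm1, and 312 and 330 CPM in the shPkm2-labelled libraries. The Pkm2 isoform (NM_011099.3) was at 1974 and 2469 CPM in the controls, 1641 and 1872 CPM with shPkm1, and 3318 and 3410 CPM in the shPkm2-labelled libraries. The isoform named in the label was thus lower in the shPkm1 libraries but not in those labelled shPkm2, and every direction given below for that group refers to its label.

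Of the 31 genes, 28 had enough counts to be tested with edgeR's quasi-likelihood test, adjusted after Benjamini and Hochberg over 12643 genes. The filter keeps a gene that is high enough in 2 libraries, whichever their groups. For Itga1, Itga8 and Itgb2 only the shPkm1 group had both libraries high enough, and 2 groups did for Itgb7, Itgb8 and Lamc3. With only the control and shPkm2-labelled libraries fitted, Itgb2 was still tested (log2 fold change -1.46), but Itga1 and Itga8 were not. A high level with shPkm1 was thus a condition of testing Itga1 and Itga8. A gene is called higher or lower where the adjusted p is under 0.05. With shPkm1, 15 of the 28 (Itga1 and Itga8 among them) were called higher than the control and 5 lower, and the median log2 fold change of the 28 was 0.41. Among all tested genes 31.8% were called higher, 31.4% were called lower, and the median was 0.00. With the shPkm2 label, 8 were called higher and 16 lower with a median of -0.34, while 33.9% of all tested genes were called higher, 34.2% lower, and the median was 0.01. Set directly against shPkm1, the shPkm2-labelled libraries had 5 of the 28 called higher and 18 lower with a median of -0.82, against 25.7% higher and 27.3% lower among all tested genes, whose median was 0.00. The 3 comparisons share libraries, so their counts are not independent of each other.

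These counts depend on how libraries are scaled. The comparisons use the trimmed mean of M values (TMM), which centres the bulk of genes on no change. Scaling by library totals instead moves the median of all genes by 0.19 for shPkm1 and by 0.32 for the shPkm2-labelled libraries, both against the control, and by 0.14 for the direct comparison. Library totals call 7772, 8797 and 6979 of the 12643 tested genes in these 3 comparisons. The share of calls that are higher then moves from 50.3% to 65.8%, from 49.8% to 69.3% and from 48.4% to 61.3%. Under library totals the shPkm1 counts are 17 higher and 5 lower, the counts for the shPkm2-labelled libraries are 9 higher and 7 lower, and the direct counts are 6 higher and 16 lower. Fewer of the 28 were called lower in the shPkm2-labelled libraries without shPkm2 replicate 2 or shScr replicate 2 (medians -0.32 and -0.35). In the direct comparison fewer were called higher without shPkm1 replicate 2 (median -0.72). Shares over all tested genes are not given for fits without a library.

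**Figure D1:**
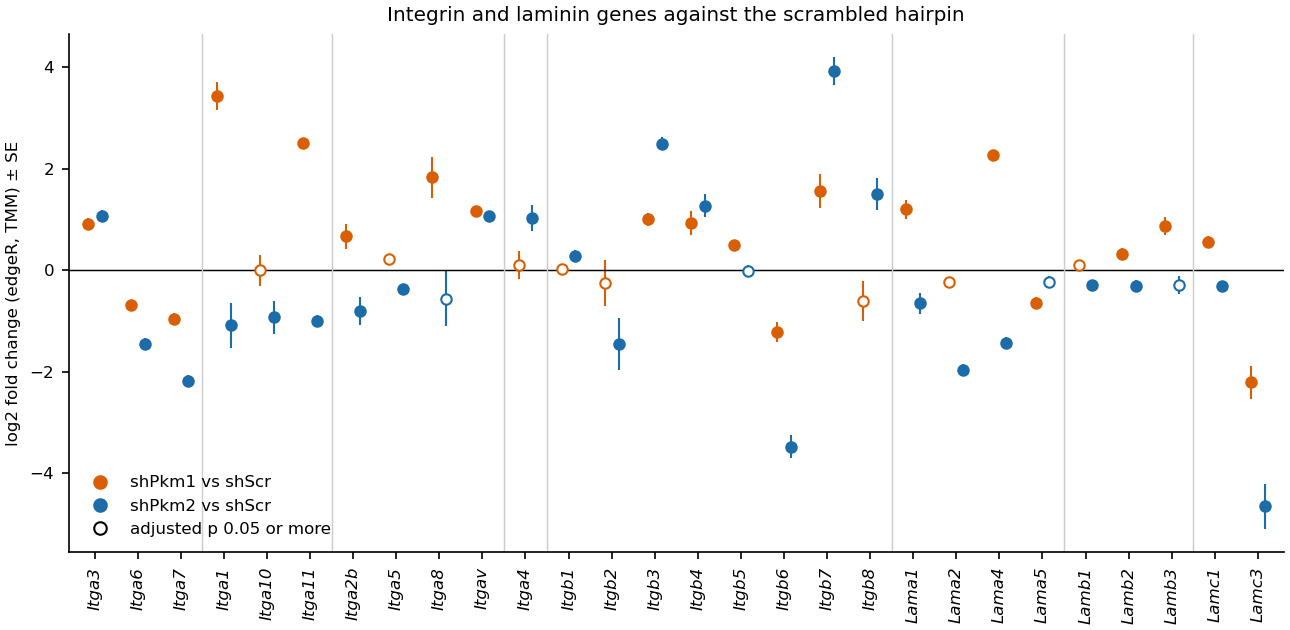
Log2 fold change of the 28 tested integrin and laminin genes against the control, one point per gene for shPkm1 and one for the shPkm2-labelled libraries, with bars of 1 standard error from the edgeR fit on TMM-scaled counts; open points were not called, and the shPkm2 point of Lamc3 rests on 5 counts. Itga11 and Lama4 lie at 2.5 and 2.26 with shPkm1 and at -1.0 and -1.44 in the shPkm2-labelled libraries, while Itga7 lies below 0 in both (-0.96 and -2.18).

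Among the alpha chains that bind laminin, Itga7 and Itga6 were lower in both hairpin groups and Itga3 was higher in both. Itga7 (chr10:128933421-128958286, GRCm38.p6), the alpha chain of the main laminin receptor of myotubes, was at 1300 and 1420 CPM in the controls, 655 and 742 CPM with shPkm1, and 296 and 304 CPM in the shPkm2-labelled libraries. The 3 groups were stepped, with no overlap. With shPkm1 the fall was 1.95-fold (log2 fold change -0.96, adjusted p = 1.08e-05, SE 0.116). For the shPkm2-labelled libraries the fall was 4.53-fold (log2 fold change -2.18, adjusted p = 3.62e-09, SE 0.120), and the direct difference between the hairpin groups was 2.33-fold (log2 fold change -1.22, adjusted p = 1.55e-06, SE 0.117). The summed muscle markers moved in the same order of groups.

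Itga6 encodes a laminin-binding chain found in many epithelia and in myoblasts. Its levels were 75.0 and 64.0 CPM in the controls, 41.8 and 44.0 CPM with shPkm1, and 26.1 and 24.6 CPM in the shPkm2-labelled libraries. The order of the groups was that of Itga7, again with no overlap. The log2 fold change was -0.69 with shPkm1 (adjusted p = 9.56e-05, SE 0.107) and -1.45 in the shPkm2-labelled libraries (adjusted p = 8.88e-08, SE 0.110). In limma on log2(TPM + 1) the shPkm1 value was -0.28 and was no longer called. Itga3, the third chain of this set, was at 51.5 and 67.4 CPM in the controls, 106 and 118 CPM with shPkm1, and 128 and 121 CPM in the shPkm2-labelled libraries. Both hairpin groups lay above the control, with log2 fold changes of 0.91 (adjusted p = 3.39e-05, SE 0.124) and 1.07 (adjusted p = 5.51e-06, SE 0.124). Between the hairpin groups Itga3 differed by 0.16 (adjusted p = 0.292, SE 0.121).

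Of the 4 alpha chains that bind collagen, Itga1 and Itga11 were highest in the shPkm1 libraries. Itga11 (chr9:62677855-62783979, GRCm38.p6) encodes a receptor for fibrillar collagen that is typical of fibroblasts, and Itga1 (chr13:114958079-115101964) encodes a receptor for basement membrane collagen. The 250 bases before the start of transcription of both genes are shown, because the 2 genes had the largest rises with shPkm1 among the 28. Itgb6 (chr2:60598292-60722603), a beta chain described further on, is added as a gene that fell in both hairpin groups. Sequences are from RefSeq on GRCm38.p6, on the strand of the gene, 5′ to 3′, for chr13:115101965-115102214 (minus), chr9:62677605-62677854 (plus) and chr2:60722604-60722853 (minus). Capitals mark each match to CANNTG, the E-box core that myogenic factors such as MyoD recognise.
Itga1: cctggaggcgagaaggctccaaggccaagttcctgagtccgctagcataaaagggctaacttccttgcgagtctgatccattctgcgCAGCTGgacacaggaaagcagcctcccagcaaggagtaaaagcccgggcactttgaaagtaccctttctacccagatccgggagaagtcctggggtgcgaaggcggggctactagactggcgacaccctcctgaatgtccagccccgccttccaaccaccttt
Itga11: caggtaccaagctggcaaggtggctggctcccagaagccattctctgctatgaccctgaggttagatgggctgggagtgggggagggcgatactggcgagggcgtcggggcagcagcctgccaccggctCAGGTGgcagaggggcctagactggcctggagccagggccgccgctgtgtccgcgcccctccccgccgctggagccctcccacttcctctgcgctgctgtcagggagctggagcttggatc
Itgb6: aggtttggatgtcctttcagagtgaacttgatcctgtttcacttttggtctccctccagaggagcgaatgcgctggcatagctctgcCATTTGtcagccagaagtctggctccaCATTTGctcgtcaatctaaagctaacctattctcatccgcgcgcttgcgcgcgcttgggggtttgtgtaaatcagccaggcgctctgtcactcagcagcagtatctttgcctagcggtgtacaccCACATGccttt
The windows of Itga1 and Itga11 hold 1 match each and that of Itgb6 holds 3. Of 24 such windows found for 21 of the 31 genes, 20 held CANNTG, which reads the same on both strands, against 66.2% of 32851 windows of all genes. Bases after the start were found in a GENCODE transcript of the same gene for 22 of the 24 windows, and not for those of Itga5 and Itga8. CAGCTG, a form contained in CANNTG, was in 6 of the 24 windows and in 13.0% of all. GGGCGG, the core of the GC box, was in 8 of 24 and in 32.7% of all when searched on both strands. CATTCC, the core of the muscle MCAT element, was in 3 of 24 and in 12.6% of all, and TGANTCA, the site of AP-1, was in 0 of 24 and in 6.75% of all. A match describes these letters only.

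Itga11 was at 23.6 and 25.6 CPM in the controls, 136 and 142 CPM with shPkm1, and 11.9 and 12.7 CPM in the shPkm2-labelled libraries. The shPkm1 libraries lay 5.65-fold above the control (log2 fold change 2.5, adjusted p = 5.94e-10, SE 0.103). The libraries labelled shPkm2 lay 2.00-fold below it (log2 fold change -1.0, adjusted p = 3.62e-06, SE 0.111) and 11.3-fold below shPkm1 (log2 fold change -3.50, adjusted p = 3.57e-11, SE 0.109). Col1a1, a chain of the collagen that this receptor binds, had the same order of groups, and it makes up most of the summed fibroblast markers. Of the 4 tested fibroblast markers, all 4 were called higher with shPkm1, but in the shPkm2-labelled libraries 2 were called lower and 1 higher.

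Itga1 had few counts outside the shPkm1 libraries: 9 and 15 in the controls, 151 and 149 with shPkm1, and 8 and 6 in the shPkm2-labelled libraries. It was 10.8-fold higher with shPkm1 than in the control (log2 fold change 3.43, adjusted p = 3.41e-07, SE 0.280) and 23.03-fold lower in the shPkm2-labelled libraries than with shPkm1 (log2 fold change -4.53, adjusted p = 4.94e-08, SE 0.305). A high level with shPkm1 was a condition of testing Itga1, so these 2 p-values are not independent of the filter. The gene was not tested when only the control and shPkm2-labelled libraries were fitted. The fall against the control in the shPkm2-labelled libraries (log2 fold change -1.09, adjusted p = 0.0404, SE 0.439) rested on these low counts. It was not called with replicate number as a block (-1.09), in DESeq2 (-1.11), under library totals (-0.78) or in limma on TPM (-0.08 and -0.35), and adjusted p ran from 0.0272 to 0.565 over all alternatives. It was also lost when any library other than shScr replicate 1 was left out, with values from -1.34 to -0.77 and adjusted p from 0.0272 to 0.275 over the 6 leave-outs. Itga2, the gene next to Itga1 on the chromosome (chr13:114833081-114932100) and also a collagen receptor chain, had 0 or 1 count in each library and was not tested. Of the exon bases of Itga1, 3.68% also belong to Gm49395 on the same strand.

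Itga10, which encodes a collagen receptor of cartilage, was at 2.16 and 4.12 CPM in the controls, 2.72 and 3.59 CPM with shPkm1, and 1.84 and 1.48 CPM in the shPkm2-labelled libraries. The shPkm1 libraries lay within the control range (log2 fold change 0.00 after rounding, adjusted p = 0.993, SE 0.305). The libraries labelled shPkm2 were lower by a log2 fold change of -0.93 (adjusted p = 0.0222, SE 0.328). Without shScr replicate 2 that value was -0.37 and without shPkm2 replicate 2 it was -0.78, and neither was called. It was not called under library totals (-0.61), in DESeq2 (-0.93) or in limma on TPM (-0.19 and -0.36) either. The direct difference of -0.93 (adjusted p = 0.0276, SE 0.323) was lost without shPkm1 replicate 2 (-0.71) and without either shPkm2-labelled library (-1.10 and -0.79), as well as under library totals (-0.79), in DESeq2 (-0.93) and in limma on TPM (-0.39 and -0.77). Of the exon bases of Itga10, 33.5% also belong to Gm42957 on the same strand, so reads of the 2 genes cannot be fully separated.

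The 4 alpha chains that recognise the RGD motif of fibronectin, vitronectin and related proteins moved in different ways. Itgav, the alpha chain that pairs with most of the beta chains below, was at 41.9 and 44.6 CPM in the controls, 101 and 92.8 CPM with shPkm1, and 91.4 and 89.7 CPM in the shPkm2-labelled libraries. Both hairpin groups lay above the control, by log2 fold changes of 1.16 (adjusted p = 4.77e-07, SE 0.0986) and 1.07 (adjusted p = 6.07e-07, SE 0.0985). Their direct difference was -0.10 (adjusted p = 0.416, SE 0.0948), and its sign turned to 0.03 under library totals. Itga5, the alpha chain of the classical fibronectin receptor, was at 468 and 493 CPM in the controls, 535 and 578 CPM with shPkm1, and 377 and 366 CPM in the shPkm2-labelled libraries. With shPkm1 the log2 fold change of 0.21 was not called (adjusted p = 0.0938, SE 0.104), although the 4 libraries did not overlap, and it was 0.40 under library totals and 0.60 in limma on TPM, both called. The fall in the shPkm2-labelled libraries (log2 fold change -0.37, adjusted p = 0.00618, SE 0.104) shrank to -0.05 under library totals, turned to 0.08 in limma on TPM, and was not called without shPkm2 replicate 2 (-0.35). Itga5 differed between the hairpin groups by -0.58 (adjusted p = 0.000384, SE 0.104).

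The other RGD-binding chains were low. Itga8, known from kidney and smooth muscle, had 6 and 7 counts in the controls, 24 and 30 with shPkm1, and 6 and 5 in the shPkm2-labelled libraries. It was higher with shPkm1 by a log2 fold change of 1.83 (adjusted p = 0.00159, SE 0.407), a level that was also the condition of testing it. Its value of -0.56 in the shPkm2-labelled libraries was not called (adjusted p = 0.382, SE 0.536). Itga2b, the alpha chain of the platelet fibrinogen receptor, was at 2.66 and 2.15 CPM in the controls, 3.78 and 3.84 CPM with shPkm1, and 1.41 and 1.34 CPM in the shPkm2-labelled libraries. The hairpin groups lay on opposite sides of the control, by 0.67 (adjusted p = 0.0298, SE 0.246) and -0.80 (adjusted p = 0.0196, SE 0.274). The rise was lost without shScr replicate 2 (0.52) or either shPkm1 library (0.69 and 0.66), and in DESeq2 (0.66). The fall was lost without shScr replicate 1 (-0.64) or either shPkm2-labelled library (-0.84 and -0.76), under library totals (-0.47), in DESeq2 (-0.81) and in limma on TPM (-0.15 and -0.30), while the direct difference of Itga2b, -1.47 (adjusted p = 0.000318, SE 0.256), was called in every leave-out.

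Itga4, a chain that binds VCAM1 and fibronectin and is best known from leukocytes and early myogenesis, was at 2.66 and 1.86 CPM in the controls, 2.72 and 2.12 CPM with shPkm1, and 4.10 and 5.11 CPM in the shPkm2-labelled libraries. Only the last group stood above the others, by a log2 fold change of 1.03 against the control (adjusted p = 0.00327, SE 0.260). Its difference from shPkm1 was 0.93 (adjusted p = 0.00729, SE 0.252) and was lost without shPkm1 replicate 2 (0.76) or shPkm2 replicate 2 (0.75). The shPkm1 value of 0.10 was not called (adjusted p = 0.768, SE 0.281). Of the exon bases of Itga4, 8.04% are shared with Cerkl on the opposite strand, and whether counting used strand is not given in the sources used here. Itgb4 (7.66%), Lamc3 (6.27%), Itgav (5.9%), Itga8 (5.05%), Lama2 (3.86%), Lama3 (1.83%) and Itga7 (0.111%) also share exon bases with a gene on the opposite strand. Itga9, the related chain, had between 0 and 2 counts in each library and was not tested.

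**Figure D2:**
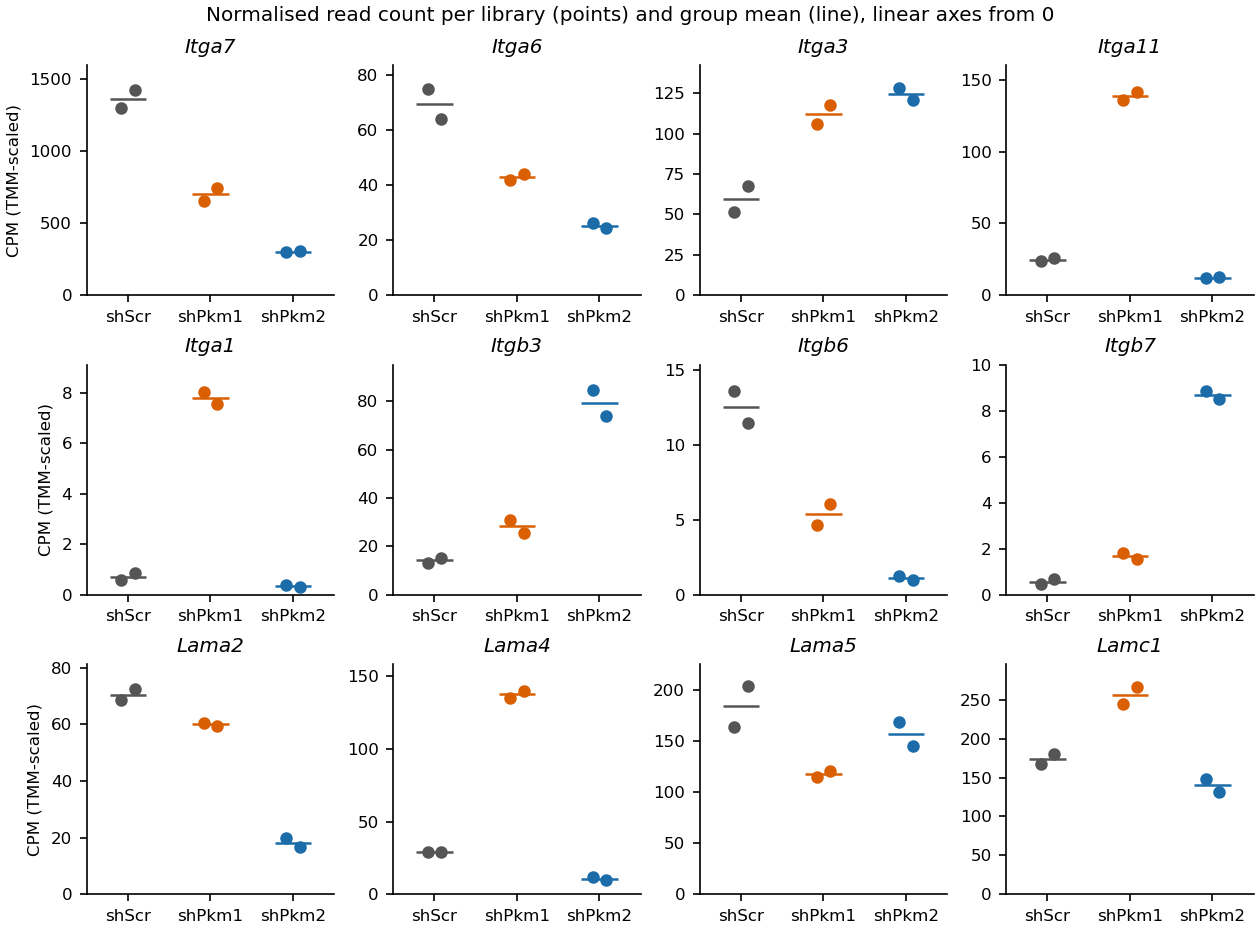
Levels of 12 integrin and laminin genes in the 6 libraries, in TMM-scaled CPM on linear axes from 0, 1 point per library and a line at the group mean. Itga7 steps down over the groups, Itga11 and Lama4 peak in the shPkm1 libraries, and Itgb3 steps up from 13.0 and 15.3 CPM in the controls to 84.5 and 74.1 CPM with the shPkm2 label.

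Among the beta chains, Itgb3, Itgb4 and Itgb7 were higher in both hairpin groups and Itgb6 lower in both. The size of the change in Itgb1, the most abundant chain, depended on the scaling. Itgb1 pairs with most alpha chains, alpha7 among them. It was at 465 and 527 CPM in the controls, 508 and 501 CPM with shPkm1, and 611 and 592 CPM in the shPkm2-labelled libraries. The shPkm1 libraries lay within the control range (log2 fold change 0.02, adjusted p = 0.853, SE 0.108), although limma on TPM gave 0.42 and a call. The rise in the shPkm2-labelled libraries was 0.28 (adjusted p = 0.0347, SE 0.108). Under library totals it was 0.60 and in limma on TPM 0.73 and 0.74, all called. Under TMM the Itgb1 call was lost in every leave-out other than that of shScr replicate 2, with values from 0.19 to 0.37 and adjusted p from 0.00331 to 0.162. It was lost too when replicate number entered the fit as a block (adjusted p = 0.0562) and when only the groups compared were fitted (adjusted p = 0.0647).

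Itgb3 (chr11:104608000-104670476, GRCm38.p6) encodes the beta chain of the vitronectin receptor with alphav. It was at 13.0 and 15.3 CPM in the controls, 30.9 and 25.7 CPM with shPkm1, and 84.5 and 74.1 CPM in the shPkm2-labelled libraries. The groups stepped up without overlap, by 2.00-fold with shPkm1 (log2 fold change 1.0, adjusted p = 2.87e-05, SE 0.134) and by 5.60-fold in the shPkm2-labelled libraries (log2 fold change 2.49, adjusted p = 2.49e-09, SE 0.131). The direct difference was 2.80-fold (log2 fold change 1.49, adjusted p = 3.35e-07, SE 0.122). Itgb7, a beta chain of lymphocyte homing receptors that pairs with alpha4, had 7 and 12 counts in the controls, 34 and 31 with shPkm1, and 188 and 179 in the shPkm2-labelled libraries. It stepped up in the same order, by 2.95-fold (log2 fold change 1.56, adjusted p = 0.00130, SE 0.338) and 15.2-fold (log2 fold change 3.92, adjusted p = 4.05e-08, SE 0.276). Of the 2 leukocyte markers tested, Cd68 was called higher in both hairpin groups and reached 3.62 TPM at most, and Itgam, the integrin alphaM chain of myeloid cells and not among the 31 genes, was called lower in both.

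Itgb6 encodes a chain that pairs with alphav in epithelia and activates latent TGF-beta. It was at 13.6 and 11.5 CPM in the controls, 4.69 and 6.07 CPM with shPkm1, and 1.27 and 0.954 CPM in the shPkm2-labelled libraries. The groups stepped down without overlap, by 2.33-fold with shPkm1 (log2 fold change -1.22, adjusted p = 9.56e-05, SE 0.188) and 11.2-fold in the shPkm2-labelled libraries (log2 fold change -3.48, adjusted p = 2.40e-08, SE 0.232). Itgb8, another alphav partner that activates TGF-beta, was at 1.01 and 0.904 CPM in the controls, 0.745 and 0.506 CPM with shPkm1, and 2.59 and 2.86 CPM in the shPkm2-labelled libraries. Only the last group stood apart upwards (log2 fold change 1.5 against the control, adjusted p = 0.000801, SE 0.313), and the shPkm1 value of -0.61 was not called (adjusted p = 0.185, SE 0.389).

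Itgb5 was called higher with shPkm1, Itgb4 was called higher in both hairpin groups, and Itgb2 had few counts. Itgb5, a further partner of alphav, was at 186 and 224 CPM in the controls, 272 and 304 CPM with shPkm1, and 208 and 196 CPM in the shPkm2-labelled libraries. It rose with shPkm1 by a log2 fold change of 0.49 (adjusted p = 0.00196, SE 0.113). Itgb5 overlapped the control in the shPkm2-labelled libraries (-0.02, adjusted p = 0.898, SE 0.113), while library totals gave 0.30 and limma on TPM 0.44, both called. Itgb4, the partner of alpha6 in hemidesmosomes, was at 2.73 and 2.09 CPM in the controls, 4.31 and 4.85 CPM with shPkm1, and 6.17 and 5.44 CPM in the shPkm2-labelled libraries, and both rises were called (0.93, adjusted p = 0.00323, SE 0.230, and 1.27, adjusted p = 0.000211, SE 0.224). Itgb2, the beta chain of leukocyte integrins, had 9 and 31 counts in the controls, 20 and 18 with shPkm1, and 8 and 10 in the shPkm2-labelled libraries. Its control libraries differed more from each other than the group means did. The fall of Itgb2 in the shPkm2-labelled libraries (-1.46, adjusted p = 0.0229, SE 0.516) was -0.41 without shScr replicate 2 and was lost there, as it was without shPkm1 replicate 1 (-1.45) or either shPkm2-labelled library (-1.29 and -1.63). Library totals (-1.14), DESeq2 (-1.46) and limma on TPM (-0.26 and -0.61) did not call it.

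Among the laminin alpha chains, Lama4 and Lama1 lay on opposite sides of the control in the hairpin groups under TMM, and Lama2 fell in the shPkm2-labelled libraries. Lama4 (chr10:38965515-39110188, GRCm38.p6), the alpha chain of laminins around vessels, fat and muscle cells, was at 28.8 CPM in both controls, 135 and 140 CPM with shPkm1, and 11.7 and 9.49 CPM in the shPkm2-labelled libraries. It was 4.78-fold higher than the control with shPkm1 (log2 fold change 2.26, adjusted p = 2.85e-09, SE 0.109) and 2.72-fold lower in the shPkm2-labelled libraries (log2 fold change -1.44, adjusted p = 2.27e-07, SE 0.121). The direct difference was 13.0-fold (log2 fold change -3.70, adjusted p = 4.84e-11, SE 0.119). Lama4 and Itga11 had the same order of groups. The endothelial markers gave at most 0.41 TPM in sum, and the adipocyte markers at most 0.11 TPM.

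Lama2 (chr10:26981285-27617191, GRCm38.p6), the alpha chain of the laminin of muscle fibres, was at 68.6 and 72.4 CPM in the controls, 60.5 and 59.4 CPM with shPkm1, and 19.7 and 16.7 CPM in the shPkm2-labelled libraries. The fall of 3.88-fold in the last group was called (log2 fold change -1.96, adjusted p = 4.84e-09, SE 0.111). With shPkm1 Lama2 was not called (log2 fold change -0.24, adjusted p = 0.0616, SE 0.103). That small value was called without shScr replicate 1 (-0.27) and turned to 0.14 in limma on log2(TPM + 1). Directly compared, Lama2 was lower in the shPkm2-labelled libraries than with shPkm1 by a log2 fold change of -1.72 (adjusted p = 3.17e-08, SE 0.111).

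Lama5, the alpha chain of most mature epithelial and vascular basement membranes, was at 164 and 204 CPM in the controls, 115 and 121 CPM with shPkm1, and 169 and 145 CPM in the shPkm2-labelled libraries. It was lowest with shPkm1 (log2 fold change -0.65, adjusted p = 0.000428, SE 0.120), where limma on log2(TPM + 1) gave -0.23 with no call. Lama5 was the only laminin gene called higher in the shPkm2-labelled libraries than with shPkm1 (log2 fold change 0.41, adjusted p = 0.0108, SE 0.120). That call was lost without either shPkm1 library (0.37 and 0.45) or shPkm2 replicate 1 (0.29). Against the control its value of -0.23 in the shPkm2-labelled libraries was not called (adjusted p = 0.0978, SE 0.119), turned to 0.09 under library totals, and was called without shScr replicate 1 (-0.38).

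Lama1, the alpha chain of the laminin of early embryos, was at 5.83 and 7.40 CPM in the controls, 13.7 and 16.8 CPM with shPkm1, and 4.85 and 3.58 CPM in the shPkm2-labelled libraries. It rose with shPkm1 by a log2 fold change of 1.2 (adjusted p = 9.20e-05, SE 0.185). Lama1 fell by 0.65 on the log2 scale in the shPkm2-labelled libraries (adjusted p = 0.0127, SE 0.207), which was -0.33 with no call under library totals, -0.09 and -0.18 with no call in limma on TPM, and was also lost without shScr replicate 2 (-0.46) or shPkm2 replicate 2 (-0.45). The hairpin groups differed by -1.86 (adjusted p = 2.92e-06, SE 0.190). Lama3, the alpha chain of the laminin of skin, had between 0 and 2 counts in each library and was not tested.

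Of the beta and gamma chains that most laminins share, Lamc1 and Lamb2 were called higher with shPkm1 and Lamb1 was not called. Lamc1, the gamma chain of most laminins, was at 168 and 180 CPM in the controls, 244 and 267 CPM with shPkm1, and 148 and 132 CPM in the shPkm2-labelled libraries. Its log2 fold change was 0.56 with shPkm1 (adjusted p = 0.000414, SE 0.103) and -0.87 between the hairpin groups (adjusted p = 1.13e-05, SE 0.104). Lamb1, the commonest beta chain, was at 209 and 237 CPM in the controls, 230 and 247 CPM with shPkm1, and 189 and 173 CPM in the shPkm2-labelled libraries. With shPkm1 it overlapped the control (0.10, adjusted p = 0.439, SE 0.104), although library totals gave 0.29 and a call. Lamb2, the beta chain concentrated at neuromuscular synapses, was at 120 and 150 CPM in the controls, 159 and 179 CPM with shPkm1, and 114 and 104 CPM in the shPkm2-labelled libraries. Its rise of 0.32 with shPkm1 (adjusted p = 0.0292, SE 0.119) was lost without shScr replicate 1 (0.17) or shPkm1 replicate 2 (0.24).

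Against the control, the values of Lamc1, Lamb1 and Lamb2 in the shPkm2-labelled libraries were -0.31 (adjusted p = 0.0160, SE 0.104), -0.30 (adjusted p = 0.0207, SE 0.104) and -0.31 (adjusted p = 0.0363, SE 0.120). All 3 were called under TMM and none under library totals, which gave 0.01, 0.02 and 0.01, so the direction of these 3 genes against the control depends on the scaling. They also lost their calls without shPkm2 replicate 2 (-0.23, -0.23 and -0.24), and Lamb1 and Lamb2 did without shScr replicate 2 (-0.21 and -0.13). For Lamb2 the call was kept only without shScr replicate 1 among the 6 leave-outs, over which adjusted p ran from 0.000168 to 0.284. Against shPkm1, Lamb2 was lower by a log2 fold change of -0.63 (adjusted p = 0.000598, SE 0.119) and Lamb1 by -0.40 (adjusted p = 0.00593, SE 0.104). The Lamb1 difference was lost without shPkm1 replicate 2 (-0.35) or shPkm2 replicate 2 (-0.34), under library totals (-0.27) and in limma on TPM (-0.33 with each pseudocount).

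Lamb3, a chain of skin laminin, was at 8.49 and 7.80 CPM in the controls, 12.6 and 17.1 CPM with shPkm1, and 6.64 and 6.54 CPM in the shPkm2-labelled libraries. It was higher with shPkm1 (log2 fold change 0.87, adjusted p = 0.000578, SE 0.168), and its value of -0.30 in the other group was not called (adjusted p = 0.146, SE 0.179) and was 0.02 under library totals. Lamc3, a minor gamma chain known from nerve, retina and skin, had 44 and 62 counts in the controls, 13 and 13 with shPkm1, and 2 and 3 in the shPkm2-labelled libraries. With shPkm1 it was lower by a log2 fold change of -2.21 (adjusted p = 6.52e-05, SE 0.328). The ratio of summed counts per effective library size was 26.7-fold lower in the shPkm2-labelled libraries than in the control (95% interval 11.1 to 84.0, 5 against 106 counts, counting error only). Against shPkm1 it was 5.69-fold lower (95% interval 2.15 to 18.98, 5 against 26 counts), a difference that limma on log2(TPM + 1) did not call (-0.22). The summed Schwann cell markers, almost all Erbb3, fell in the same order, from 18.3 to 20.6 TPM in the controls to between 0.97 and 1.19 TPM in the shPkm2-labelled libraries, with Sox10 at 0 throughout.

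**Figure D3:**
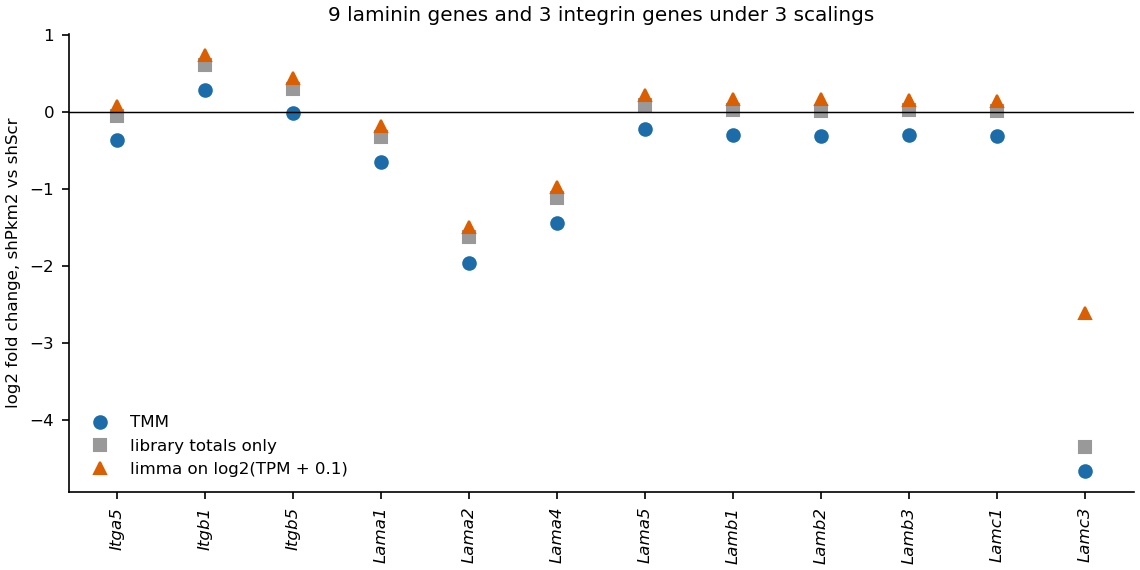
Log2 fold change of the shPkm2-labelled libraries against the control for 9 laminin genes and 3 integrin genes under 3 scalings (TMM, library totals, and limma on log2(TPM + 0.1)). Lamb1, Lamb2 and Lamc1 move from -0.30, -0.31 and -0.31 to 0.02, 0.01 and 0.01 between TMM and library totals, while Lama4 and Lama2 stay below 0 under all 3.

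Shares within a family do not depend on library scaling. They were computed from TPM, which corrects for transcript length, as mean ± SD over the 2 libraries of a group and with no test. Itga7 held 69.9% ± 0.581 of the summed TPM of the 13 integrin alpha genes in the controls, 46.3% ± 1.05 with shPkm1 and 36.3% ± 0.958 in the shPkm2-labelled libraries. Itga5 held 22.6% ± 0.499, 33.6% ± 0.321 and 41.0% ± 0.530, so it passed Itga7 in the last group. Itga3 held 2.54% ± 0.336, 6.16% ± 0.0573 and 12.6% ± 0.389. Itga11 peaked with shPkm1 at 7.50% ± 0.242, against 1.03% ± 0.000885 in the controls and 1.21% ± 0.0649 in the shPkm2-labelled libraries. The summed level of the alpha genes was 672 ± 96.2 TPM in the controls, 681 ± 16.5 TPM with shPkm1 and 390 ± 17.4 TPM in the shPkm2-labelled libraries.

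Among the 8 beta genes Itgb1 held 63.2% ± 0.825 of the summed TPM in the controls, 55.6% ± 1.90 with shPkm1 and 63.9% ± 0.665 in the shPkm2-labelled libraries. Itgb5 was the second chain in all 3 groups, with its largest share, 40.7%, in the shPkm1 libraries. Itgb3 held 1.30%, 2.26% and 6.07%. The summed level of the beta genes was 261 ± 48.4, 394 ± 6.07 and 427 ± 29.7 TPM in the same order. The sum of the alpha genes was thus above that of the beta genes in the control and shPkm1 libraries and slightly below it in the shPkm2-labelled libraries.

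The leading laminin alpha chain differed between the groups. Lama5 held 55.7% ± 2.99 of the summed TPM of the 5 laminin alpha genes in the controls and 77.2% ± 0.542 in the shPkm2-labelled libraries, but 25.2% ± 0.209 with shPkm1. Lama4 held 55.7% ± 0.0590 with shPkm1, against 16.6% ± 1.63 in the controls and 9.84% ± 0.320 in the shPkm2-labelled libraries. Lama2 held 25.3% ± 1.58 in the controls, 15.1% ± 0.610 with shPkm1 and 10.5% ± 0.0111 in the shPkm2-labelled libraries. The beta and gamma chains kept their order, with Lamb1 at 55.0% to 59.8% of the beta genes and Lamc1 at 97.7% to 99.9% of the gamma genes over the group means.

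**Figure D4:**
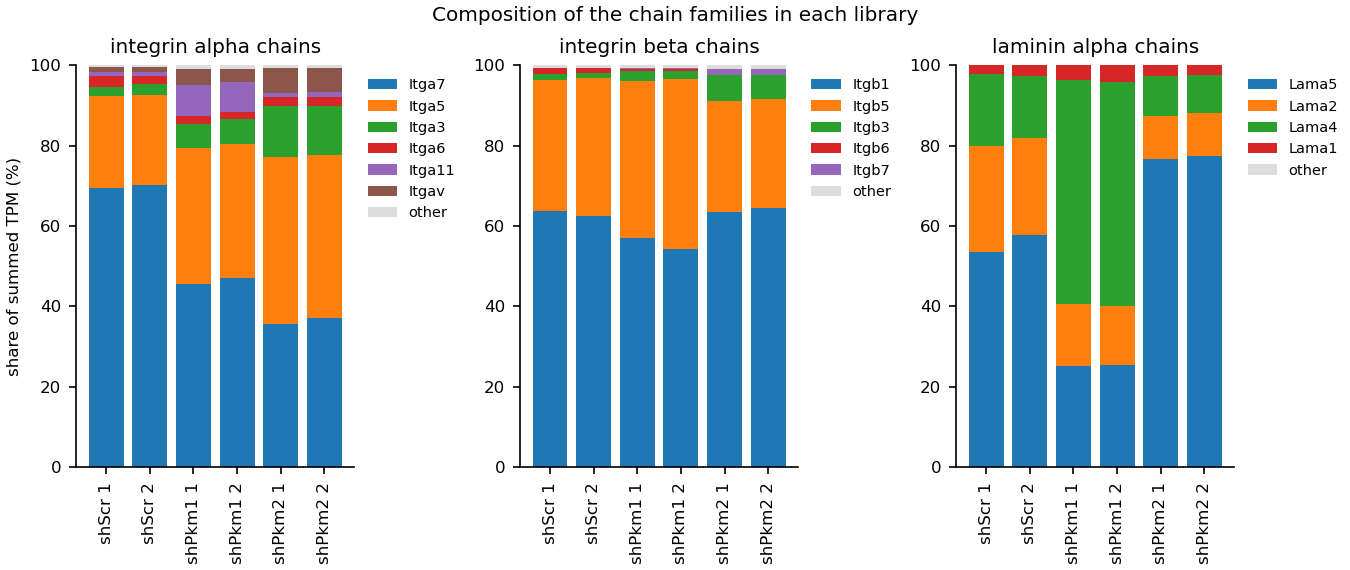
Share of the summed TPM (in %) of the integrin alpha, integrin beta and laminin alpha families held by each leading gene, in stacked bars for the 6 libraries. Itga7 gives way from 69.9% of the alpha integrin TPM in the controls to 36.3% in the shPkm2-labelled libraries, and Lama4 takes 55.7% of the laminin alpha TPM in the shPkm1 libraries.

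The table lists RefSeq transcripts, and 14 of the genes had 2 or more tested transcripts, 38 in all. With shPkm1, 9 of the 38 were called, where 10.8% of all 33433 tested transcripts were called in either direction. In the shPkm2-labelled libraries it was 11 of 38 against 17.2% of all, and in the direct comparison 7 of 38 against 7.91%. Itga7 had 3 transcripts of note. NM_008398.2 was at 863 and 896 CPM in the controls, 504 and 522 CPM with shPkm1, and 148 and 162 CPM in the shPkm2-labelled libraries (log2 fold changes -0.74, adjusted p = 0.0139, and -2.47, adjusted p = 0.000849). XM_006513267.3 was at 313 and 474 CPM in the controls, 94.3 and 162 CPM with shPkm1, and 134 and 133 CPM in the shPkm2-labelled libraries. The first transcript fell further from shPkm1 to the shPkm2-labelled libraries (-1.73, adjusted p = 0.00262), while the second differed by 0.05 (adjusted p = 0.978); the difference between the transcripts was not tested. XM_017313813.1 had 101 and 29.0 CPM in the controls but 1.46 and 0.716 CPM in the shPkm2-labelled libraries (log2 fold change -5.86, adjusted p = 0.0119). Reads were divided between transcripts by estimation, and the division was unstable for some genes. In the shPkm2-labelled libraries, NM_008481.2 of Lama2 was at 3.58 and 14.8 CPM and XM_011243135.1 at 15.8 and 1.62 CPM, while the Lama2 gene sums of those libraries were 418 and 349 counts. When 1 library was left out, the number of transcripts called ran from 0 to 5 with shPkm1, from 4 to 8 in the shPkm2-labelled libraries and from 1 to 8 in the direct comparison.

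Integrins act through proteins that link their tails to actin. Of 26 such linkers and adaptors, 24 were tested. With shPkm1, 11 were called higher and 5 lower (median log2 fold change 0.06), and in the shPkm2-labelled libraries 9 were called higher and 8 lower (median -0.06). These are 45.8% and 20.8% of the list with shPkm1, beside 31.8% and 31.4% of all tested genes, and 37.5% and 33.3% with the shPkm2 label, near the 33.9% and 34.2% of all tested genes. Itgb1bp2 (melusin), a muscle protein that binds the tail of the beta1 chain, was at 528 and 313 CPM in the controls, 76.1 and 74.5 CPM with shPkm1, and 1.51 and 1.72 CPM in the shPkm2-labelled libraries. Its log2 fold changes were -2.48 (adjusted p = 1.54e-07, SE 0.185) and -8.02 (adjusted p = 3.66e-11, SE 0.271). Flnc, the filamin of muscle, also fell in both, with log2 fold changes of -0.87 (adjusted p = 0.000128, SE 0.140) and -1.95 (adjusted p = 6.74e-08, SE 0.144). Tns3, a tensin of focal adhesions, rose in both groups, by 1.40 (adjusted p = 6.95e-07, SE 0.124) and 1.09 (adjusted p = 4.07e-06, SE 0.123). Lims2, an adaptor of the kinase complex at integrin tails, rose with shPkm1 (1.75, adjusted p = 4.94e-05, SE 0.251), from 1.71 and 1.64 CPM in the controls to 6.12 and 5.21 CPM, and was at 1.84 and 1.38 CPM with the shPkm2 label. Nedd9, a docking protein, was at 32.9 and 28.9 CPM in the controls, 70.8 and 72.5 CPM with shPkm1, and 74.4 and 66.9 CPM with the shPkm2 label (log2 fold change 1.2 in the last, adjusted p = 4.46e-07, SE 0.107), so both hairpin groups lay above the control.

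Of 18 other basement membrane proteins and laminin receptors, 15 were tested. With shPkm1, 10 were called higher and 3 lower (median 0.47), and in the shPkm2-labelled libraries 3 were called higher and 9 lower (median -0.58). The shares are 66.7% and 20% with shPkm1 (31.8% and 31.4% of all tested genes) and 20% and 60.0% with the shPkm2 label (33.9% and 34.2% of all tested genes). Bcam, a laminin receptor of the immunoglobulin family that binds the alpha5 chain, was at 181 and 113 CPM in the controls, 21.0 and 25.2 CPM with shPkm1, and 5.37 and 5.63 CPM in the shPkm2-labelled libraries (log2 fold changes -2.67, adjusted p = 6.97e-08, SE 0.183, and -4.74, adjusted p = 5.24e-10, SE 0.213). Agrn, the agrin that organises neuromuscular synapses, was at 256 and 260 CPM in the controls and at 81.4 and 83.2 CPM with shPkm1 (log2 fold change -1.65, adjusted p = 1.44e-08, SE 0.0945), and at 87.4 and 87.1 CPM with the shPkm2 label. Smoc1 and Smoc2, matrix proteins of the SPARC family, rose with shPkm1 by 2.81 (adjusted p = 5.76e-07, SE 0.244) and 1.47 (adjusted p = 1.49e-07, SE 0.110). With the shPkm2 label Smoc1 was at 0.33 and 0.477 CPM, below the 1.27 and 1.13 CPM of the controls. Smoc2 was at 17.9 and 17.5 CPM there, against 14.1 and 14.8 CPM in the controls. Ntn4, a netrin related to laminins, was at 14.5 and 13.7 CPM in the controls, 17.7 and 16.1 CPM with shPkm1, and 2.31 and 1.48 CPM with the shPkm2 label (log2 fold change -2.89 in the last, adjusted p = 2.64e-08, SE 0.194). Nid1, which links laminin to collagen, was high in both hairpin groups, at 70.0 and 75.1 CPM in the controls, 184 and 182 CPM with shPkm1, and 185 and 171 CPM with the shPkm2 label (log2 fold change 1.29 in the last, adjusted p = 9.36e-08, SE 0.0989). Col18a1, a basement membrane collagen, was at 114 and 187 CPM in the controls, 266 and 291 CPM with shPkm1, and 212 and 216 CPM with the shPkm2 label (0.51 in the last, adjusted p = 0.0168, SE 0.168).

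Of 18 integrin ligands other than laminins, 17 were tested. With shPkm1, 13 were called higher and 3 lower (median 1.2), and in the shPkm2-labelled libraries 5 were called higher and 5 lower (median -0.02). With shPkm1 that is 76.5% and 17.6%, beside 31.8% and 31.4% of all tested genes, and with the shPkm2 label 29.4% each way, below the 33.9% and 34.2% of all tested genes. Col1a1 was at 1640 and 1470 CPM in the controls, 8230 and 8610 CPM with shPkm1, and 154 and 139 CPM in the shPkm2-labelled libraries. It lay on opposite sides of the control in the hairpin groups (log2 fold changes 2.44, adjusted p = 1.47e-08, SE 0.140, and -3.41, adjusted p = 3.61e-10, SE 0.147), as Itga11 did. Spp1 (osteopontin), a ligand of alphav integrins, was at 179 and 213 CPM in the controls, 412 and 420 CPM with shPkm1, and 2050 and 2080 CPM in the shPkm2-labelled libraries (log2 fold change 3.40 in the last, adjusted p = 1.10e-10, SE 0.130), the order of groups seen for Itgb3. Npnt (nephronectin), a ligand of the alpha8 chain, fell in both groups, with log2 fold changes of -2.19 (adjusted p = 1.28e-08, SE 0.124) and -5.24 (adjusted p = 9.00e-12, SE 0.147). Ccn3, a secreted matrix protein, rose by 5.75 with shPkm1 (adjusted p = 1.08e-11, SE 0.137). Under TMM its relative Ccn2 was lower there by 0.25 (adjusted p = 0.0324, SE 0.0951). That size is near the 0.19 by which library totals move the median of all genes, and the Ccn2 value under library totals is not given. Vcam1, a ligand of the alpha4 chain, was at 43.8 and 56.7 CPM in the controls, 112 and 110 CPM with shPkm1, and 156 and 165 CPM with the shPkm2 label (log2 fold change 1.67 in the last, adjusted p = 5.13e-08, SE 0.121).

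In the shPkm2-labelled libraries, 7 of the 9 tested laminin genes were called lower than the control (34.2% of all tested genes were) and all 9 log2 fold changes were below 0 under TMM, but those of Lama5, Lamb1, Lamb2, Lamb3 and Lamc1 turn above 0 under library totals. Under library totals and in limma on TPM the 7 became 3 (Lama2, Lama4 and Lamc3). The 34.2% holds for TMM only. Library totals called 8797 of the 12643 tested genes, 69.3% of them higher, and limma shares are not given. Without shPkm2 replicate 2, Lama1 (-0.45), Lamb1 (-0.23), Lamb2 (-0.24) and Lamc1 (-0.23) were not called. Nor were Lama1 (-0.46), Lamb1 (-0.21) and Lamb2 (-0.13) without shScr replicate 2. Against shPkm1 directly, 8 of the 9 laminin genes were called lower (27.3% of all tested genes were) and Lama5 higher.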

How the data were processed

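Total RNA was isolated in TRIzol and sequencing libraries came from BGI Americas, per the labels' protocols. HISAT, StringTie, Bowtie, RSEM, DESeq2 and the build mm10 are named, per the submitters' processing notes, without roles or versions. Strandedness is not given in the sources used here. Per the file headers, the deposited table gives an estimated count, an FPKM and a TPM value for each of 57920 RefSeq transcripts and 6 libraries, and 9 columns of the authors' group means were not used. Of the deposited estimated counts above 0, 16.5% to 17.7% per library were exactly whole. They were summed per NCBI gene and rounded, and the deposited TPM values were summed in the same way. No symbol was found for 113 genes, with up to 0.148% of a library's counts. The deposited FPKM values, scaled by the authors to length and library size, were not used.

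Genes were tested with edgeR 4.0.16 (quasi-likelihood test, TMM, filterByExpr with minimum count 10 and total 15, 1 coefficient per group, all 6 libraries, two-sided, Benjamini-Hochberg over 12643 genes) and transcripts likewise over 33433. Each standard error is |log2 fold change| over the square root of the F statistic. The fits were tested on simulated data. A permutation of 2 libraries against 2 cannot go below p = 0.333. Counts of 3 or fewer were treated as the floor, and groups near it are given as ratios with counting intervals (95%, exact binomial). Intervals and floors cover counting error only. All 31 genes are named. From each of 3 lists of linked genes, the text names the 2 highest and 2 lowest called log2 fold changes against the control where the mean count was 50 or more. The genes, lists and rules were chosen with earlier results of these data known. Alternatives were DESeq2 size factors, library totals, no filter, a mean count of 50 or more, fits of the compared pair alone, DESeq2 1.42.0, replicate number as a block, limma 3.58.1 on log2(TPM + 1) and log2(TPM + 0.1), shares from counts in place of TPM, and leaving out each library. Promoter windows come from RefSeq on GRCm38.p6, and exon overlaps from GENCODE.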

Additional observations from a re-analysis of the deposited data

Results flagged for a closer look

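For 7 genes the hairpin groups were called on opposite sides of the control under TMM, and the direct comparison of the shPkm2-labelled libraries with those labelled shPkm1, by edgeR's quasi-likelihood test, was called too. The log2 fold change of that comparison was -4.53 for Itga1, -3.50 for Itga11, -3.70 for Lama4, -1.86 for Lama1, -1.47 for Itga2b, -0.87 for Lamc1 and -0.63 for Lamb2. For Lamb2 and Lamc1 the value of the shPkm2-labelled libraries against the control turned from -0.31 to 0.01 under library totals, while their rise with shPkm1 and their direct difference were called under both scalings. For Itga1, Itga2b and Lama1 that value stayed below 0 under library totals (-0.78, -0.47 and -0.33) but was not called. Without its high level in the shPkm1 libraries Itga1 would not have been tested. Lama4 and Itga11 were called on opposite sides of the control under all alternatives run.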

How the results depend on the processing

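Of 67 called comparisons of single genes, 48 kept direction and call under all alternatives run, 19 lost the call under at least 1, and 4 of them also changed sign. The count of genes lower with shPkm1 was 3 in both limma fits. Shares over all tested genes are not given for the limma fits or the leave-outs, so their counts describe the 28 genes alone. The count lower in the shPkm2-labelled libraries was 7 under library totals and in both limma fits, and 7 to 16 over leave-outs. The direct count of higher genes was 3 to 6 over leave-outs.

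For shPkm1 against the control, Itga10 was 0.18 under library totals, 0.01 with no filter, with the replicate block and with only the groups compared, 0.20 and 0.41 in limma with pseudocounts 1 and 0.1, and -0.38 to 0.55 over leave-outs. Over leave-outs Itga4 ran from -0.14 to 0.37, Itgb1 from -0.06 to 0.12 and Itgb2 from -0.83 to 0.78. In limma Itgb2 was 0.09 and 0.32 and Lama2 0.14 and 0.15.

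In the shPkm2-labelled libraries, library totals and limma with each pseudocount gave 0.30, 0.44 and 0.44 for Itgb5 (leave-outs -0.15 to 0.13), 0.09, 0.22 and 0.22 for Lama5, 0.02, 0.15 and 0.16 for Lamb1, 0.01, 0.15 and 0.16 for Lamb2, 0.02, 0.11 and 0.15 for Lamb3, and 0.01, 0.14 and 0.14 for Lamc1. Itga5 was 0.08 in both limma fits. Itgav was 0.03 in the direct comparison under library totals. The fit on library totals differs from the reported one in scaling alone, and the cause of the limma values was not tested.

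From counts in place of TPM, Itga7 held 66.5%, 42.0% and 32.2% of the alpha integrins in shScr, shPkm1 and shPkm2, Lama4 9.98%, 41.6% and 5.57% and Lama5 63.3%, 35.6% and 82.6% of the laminin alphas, so Lama4 still led with shPkm1.

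Replicate numbers did not pair the libraries (correlation of replicate differences -0.0256, 0.0418 and 0.0527). With the replicate block, 15 genes were higher and 5 lower with shPkm1, 7 and 15 in the shPkm2-labelled libraries, and 5 and 18 directly, while called transcripts fell to 3 in the shPkm1 and the direct comparison. Called transcripts over leave-outs ran from 0 to 5, 4 to 8 and 1 to 8. Without a library its group holds 1 sample, assumed to vary like the others. Low counts limit the precision for Itga2b, Itga8, Itga10, Itgb2, Itgb8 and Lamc3, whose mean is under 50 counts and which are absent from the fit with that minimum.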
